A study of Mus musculus with 12 samples.

Results

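The genes described here carry a cell through DNA replication and division. They are 50 genes chosen by name, from the helicase subunits that open DNA at replication origins to the kinesins and kinases of mitosis. A gene counted as measured where a probe set, the group of short probes by which the array reads a transcript, carried its symbol and no other. By that rule 49 of the 50 had a value, out of 18193 genes in all, and Ccnb1 was not analysed here. These 49 genes had 112 probe sets, with several for 35 of them. Where a gene had several, the one that was brightest on average across all arrays stands for it. Values are the log2 of the deposited intensity, and levels of different genes are not compared with each other.

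All samples were sorted as B cells from female C57BL/6 mice by flow cytometry, with no culture in between, and their RNA was hybridised to Affymetrix mouse arrays. Age-associated cells (ABC) and follicular cells (FO) both came from the spleen of mice older than 15 months, and old B1 cells came from the peritoneal cavity of mice of that age. Young B1 cells came from the peritoneal cavity of mice of 8 weeks, and sample titles call both B1 groups B1a where the cell type field says B1. Each of the 4 groups holds 3 arrays. The surface markers of the sort are not in the labels, nor is the source of replicates (single mice, pools or one sort divided). A p-value here therefore reflects only how these samples scatter, which may be technical.

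Most B cells in the spleen rest outside the cell cycle, whereas B1 cells are known for renewing themselves in the peritoneal cavity. A cell that enters the cycle first releases E2F factors from the pocket proteins, which turns on genes for replication licensing, nucleotide supply and entry into S phase. A later wave, driven through the MuvB complex with B-Myb and FOXM1, turns on the cyclins, kinases, kinetochore and spindle genes of G2 and mitosis.

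The 75th percentile of intensity was 346 on old B1 replicate 3 and 378 on old FO replicate 2, against 400.1 to 412 on the other 10 arrays. Array weights estimated in limma were lowest for this pair, at 0.102 and 0.349, and both are shown apart throughout. Of the B cell markers 9 of 10 were measured, and their summed intensity lay between 53745 and 65140 on all 12 arrays. Cd79a and Cd79b, the signalling chains of the B cell receptor, measured 13.08 to 13.65. Old FO replicate 2 had the highest value of its group for 9 of 9 germinal centre markers, 10 of 10 plasma cell markers and 9 of 9 T cell markers. Old B1 replicate 3 had the highest value for 1 of 9 germinal centre markers, 4 of 10 plasma cell markers and 0 of 9 T cell markers. For erythroid markers those counts were 4 of 7 in FO and 2 of 7 in old B1, and Tfrc and Slc4a1 measured 10.66 to 11.94 and 4.77 to 5.17 over the 12 arrays. Over all genes, old FO replicate 2 had the highest value of its group in 38.2% and old B1 replicate 3 in 36.6%.

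The largest upward departures of cell cycle genes from their group lay on these same arrays. Old B1 replicate 3 had the highest value of its group in 49 of 49 members, against 36.6% of all genes, and lay above the mean of the other 2 arrays by a median of 1.69 on the log2 scale. Single members lay above by 0.34 to 3.28, and 38 of them by more than 2-fold, against 7.06% of all genes, whose median was -0.07. Old FO replicate 2 had the highest value in 42 of 49 members, against 38.2% of all genes. Its median over the other 2 FO arrays was 0.86, with a range from -0.38 to 2.74, and 23 members were more than 2-fold above, against 2.98% of all genes. In RNA from a bulk of cells, more dividing cells and more of these transcripts in each cell cannot be told apart.

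**Figure D1:**
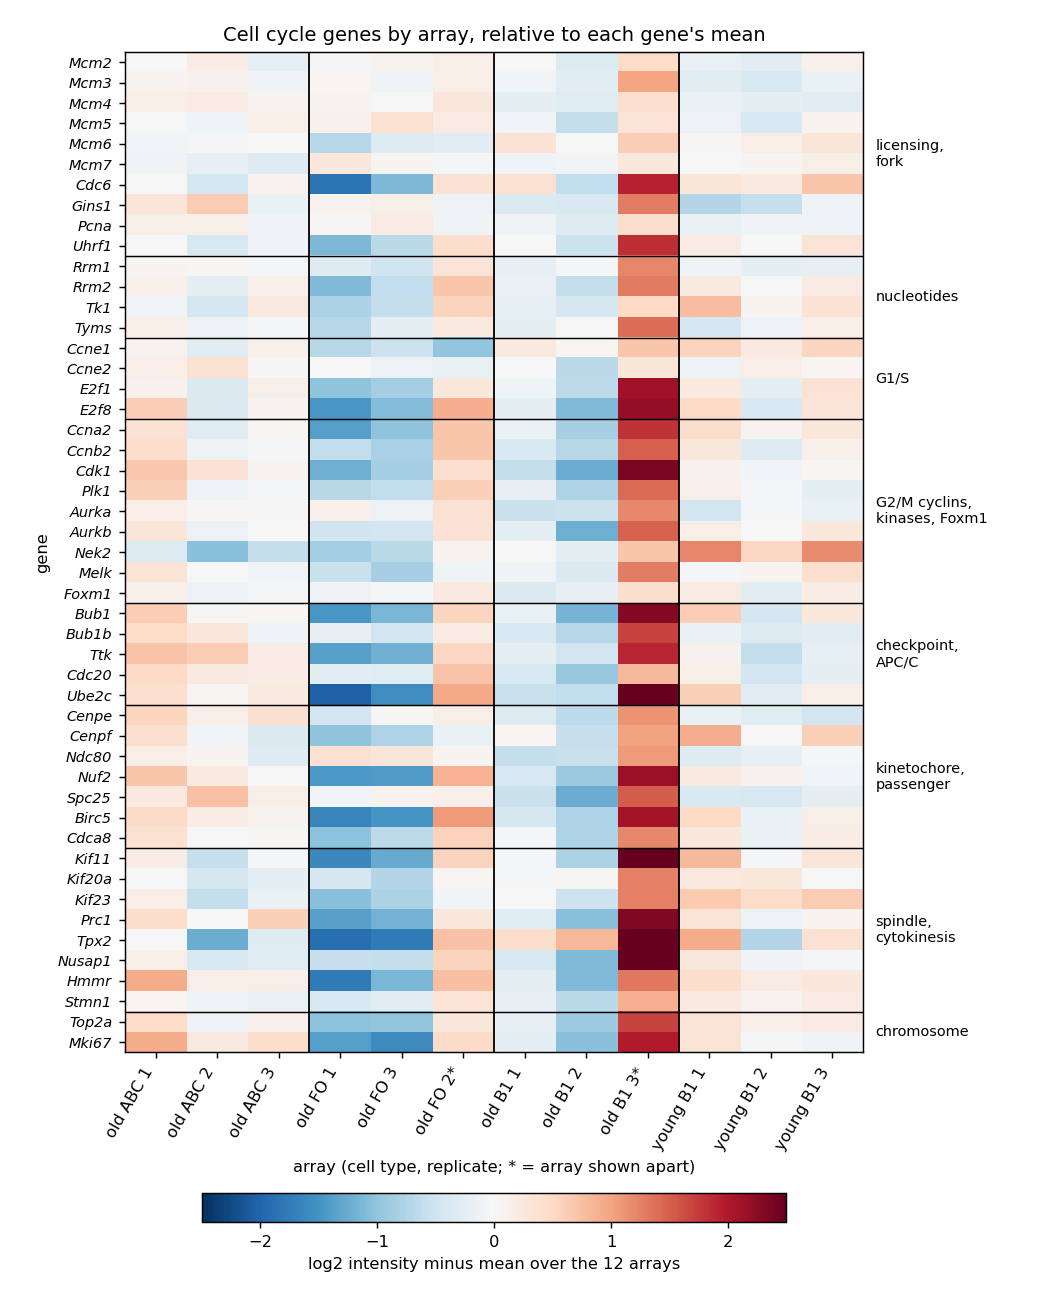
Colour gives the log2 intensity of each of the 49 genes (rows, by role) on each of the 12 arrays (columns) minus that gene's mean over the 12 arrays. Old B1 replicate 3 stands out as higher in nearly every row, while old FO replicates 1 and 3 are low in most rows below the licensing genes.

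The remaining arrays were not uniform either. Within old B1 cells, replicate 2 had the lowest value of the group in 41 members and replicate 1 in 8, against 25.1% and 25.5% of all genes. Their medians against the other 2 arrays of the group were -1.15 and -0.62. In FO cells, replicate 1 was the lowest in 32 members and replicate 3 in 11, against 30.6% and 29.1% of all genes. Their medians were -0.57 and -0.42. Each of these medians is set against a mean that includes old B1 replicate 3 or old FO replicate 2, which lowers it. The ABC and young B1 arrays lay closer together, with medians between -0.22 and 0.29 in ABC and between -0.19 and 0.16 in young B1 cells. Over all 12 arrays, the highest value belonged to old B1 replicate 3 in 44 members and the lowest to old FO replicate 1 in 22 members.

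**Figure D2:**
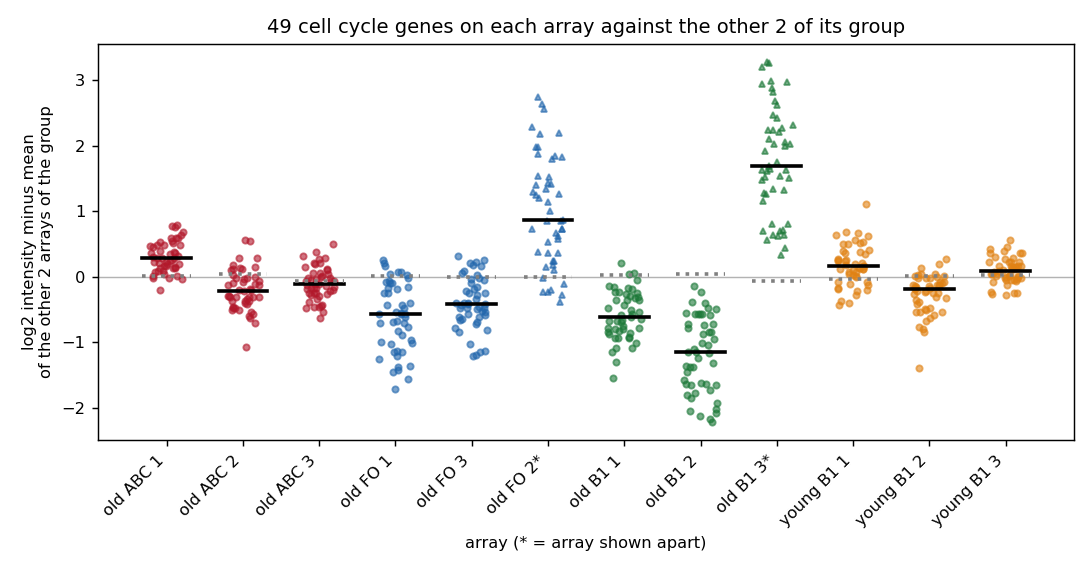
Each point is a cell cycle gene, placed by its log2 intensity on an array (horizontal axis) minus the mean of the other 2 arrays of that group. Black lines mark the median of the 49 genes and dotted lines that of all 18193 genes. Old B1 replicate 3 (median 1.69) and old FO replicate 2 (median 0.86) lie above all other arrays, whose medians run from -1.15 to 0.29. For the other old B1 and FO arrays the mean includes the array shown apart, which lowers their values.

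Mki67, which encodes the proliferation marker Ki-67 on the surface of mitotic chromosomes, shows the pattern. It measured 10.21, 9.51 and 9.73 in old ABC replicates 1 to 3 and 9.63, 9.26 and 9.19 in young B1 cells. In old FO cells Mki67 measured 7.90 and 7.69 on replicates 1 and 3 and 9.77 on replicate 2, and in old B1 cells 9.07 and 8.23 on replicates 1 and 2 and 11.26 on replicate 3. Replicate 2 of FO thus lay within the range of ABC, and replicate 3 of old B1 lay above all other arrays.

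Top2a, the topoisomerase that untangles replicated DNA, measured 9.22, 8.64 and 8.89 in ABC, 7.75, 9.05 and 7.79 in FO, 8.55, 7.88 and 10.46 in old B1 and 9.09, 8.89 and 8.98 in young B1 cells. Cdk1, the kinase that drives entry into mitosis, measured 8.91, 8.59 and 8.30 in ABC, 7.02, 8.64 and 7.41 in FO, 7.63, 6.99 and 10.59 in old B1 and 8.34, 8.18 and 8.26 in young B1 cells. Cdk1 had the largest excess of any member on old B1 replicate 3, 3.28 over the mean of replicates 1 and 2, which is 9.68-fold. Without the arrays shown apart, both genes were lower on each FO and old B1 array than on any ABC array.

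Birc5, which encodes survivin of the chromosomal passenger complex, measured 9.91, 9.60 and 9.50 in ABC, 7.78, 10.49 and 7.93 in FO, 8.98, 8.66 and 11.50 in old B1 and 9.93, 9.26 and 9.57 in young B1 cells. Ube2c, the ubiquitin-conjugating enzyme of the anaphase-promoting complex, measured 8.64, 8.23 and 8.45 in ABC, 6.19, 9.16 and 6.65 in FO, 7.65, 7.59 and 10.82 in old B1 and 8.79, 7.94 and 8.37 in young B1 cells. On old FO replicate 2 these genes had the largest excesses over the other 2 FO arrays, 2.74 for Ube2c and 2.64 for Birc5. Their groups of 3 overlapped in every comparison.

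**Figure D3:**
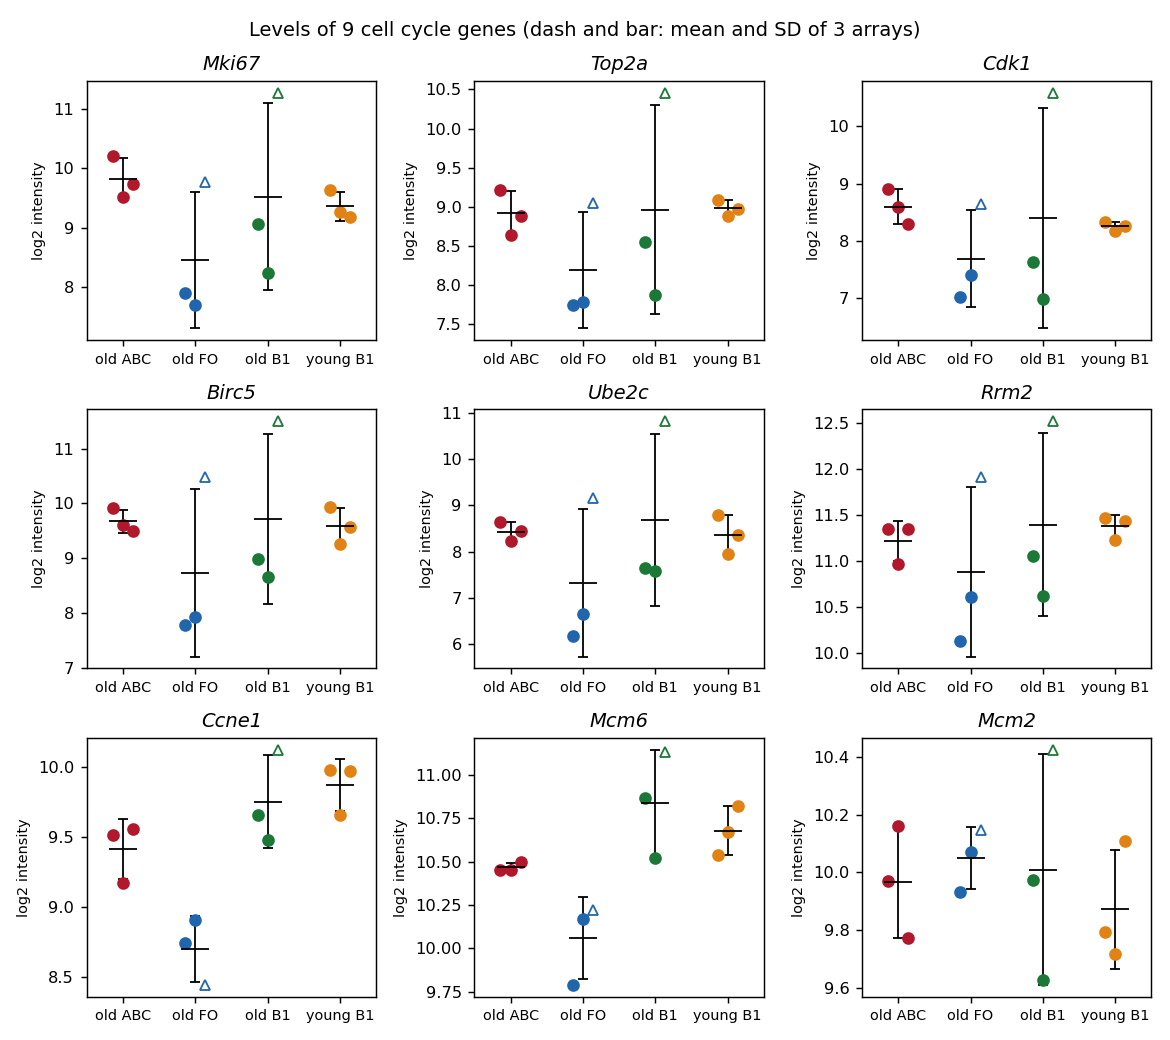
Log2 intensity of 9 cell cycle genes (vertical axes, each with its own scale) in the 4 groups, with a point per array, the mean as a dash and the SD of 3 arrays as a bar. Open triangles are old FO replicate 2 and old B1 replicate 3. For the mitotic genes Mki67, Top2a, Cdk1, Birc5 and Ube2c the triangles lie far above the filled points of their group, while Ccne1 separates FO from the other groups on all arrays.

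Since most members were high on the same 2 arrays, their promoters were searched for the sequence elements through which the 2 waves of cell cycle transcription are known to act. The CHR, to which the MuvB complex binds, was searched as TTTGAA or TTCGAA, the CCAAT box of NF-Y as CCAAT, and E2F sites as GGCGGGAA, TTTCGCGC or TTTGGCGC, all on both strands. RefSeq promoters of GRCm38.p6, each 250 bases before to 50 bases after a gene start, were matched for 40 of the 49 members, and they held 43 promoters. The 4 promoters printed belong to members whose values are given by array, and they show each kind of element. Sequences run from 5′ to 3′ on the strand of the gene, and capitals mark the matches. The first is that of Mki67 at chr7:135716330-135716629 on the minus strand, with 2 CHR and 3 CCAAT matches.
Mki67: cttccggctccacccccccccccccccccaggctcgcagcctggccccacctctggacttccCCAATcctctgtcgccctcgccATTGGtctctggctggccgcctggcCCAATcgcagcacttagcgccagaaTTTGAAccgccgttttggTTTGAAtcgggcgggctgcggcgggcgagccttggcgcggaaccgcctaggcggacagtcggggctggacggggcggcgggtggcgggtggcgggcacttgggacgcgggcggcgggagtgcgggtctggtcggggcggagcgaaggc

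The promoter of Cdk1, at chr10:69352863-69353162 on the minus strand, held 2 CHR matches, 3 CCAAT matches and an E2F site.
Cdk1: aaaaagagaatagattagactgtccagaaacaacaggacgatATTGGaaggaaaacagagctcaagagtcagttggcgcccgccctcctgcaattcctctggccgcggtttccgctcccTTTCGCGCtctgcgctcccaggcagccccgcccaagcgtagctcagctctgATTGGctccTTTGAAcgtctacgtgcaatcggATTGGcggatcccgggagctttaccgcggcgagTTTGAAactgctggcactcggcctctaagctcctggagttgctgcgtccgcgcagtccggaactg

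That of Top2a, at chr11:99024140-99024439 on the minus strand, had 10 matches, of which 4 were CHR and 6 were CCAAT.
Top2a: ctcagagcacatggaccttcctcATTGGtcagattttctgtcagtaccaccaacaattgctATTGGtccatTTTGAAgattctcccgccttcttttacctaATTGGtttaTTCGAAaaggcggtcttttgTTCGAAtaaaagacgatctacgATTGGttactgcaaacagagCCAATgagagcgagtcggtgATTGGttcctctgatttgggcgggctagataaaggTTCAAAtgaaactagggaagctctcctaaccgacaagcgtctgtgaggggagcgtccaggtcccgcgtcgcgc

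Mcm6, a subunit of the replicative helicase, is shown for contrast, with 3 E2F matches, 2 CCAAT matches and no CHR match. Its promoter lies at chr1:128359656-128359955 on the minus strand, and 2 of its E2F matches overlap, at -110 and -106 relative to the gene start.
Mcm6: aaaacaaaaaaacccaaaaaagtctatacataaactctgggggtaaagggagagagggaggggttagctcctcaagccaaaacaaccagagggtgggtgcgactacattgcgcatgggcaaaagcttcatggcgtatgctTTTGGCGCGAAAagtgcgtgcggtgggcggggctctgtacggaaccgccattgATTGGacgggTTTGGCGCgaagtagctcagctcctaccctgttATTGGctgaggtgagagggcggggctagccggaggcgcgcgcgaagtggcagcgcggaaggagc

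By gene, a CHR stood in 22 of the 40 matched members (55%), against 21.7% of all genes with a promoter, and in 19.2% of all 32851 promoters. CCAAT boxes stood in 30 members (75%), against 41.1% of all genes and 37.4% of all promoters. An E2F site stood in 7 members (17.5%), against 3.39% of all genes and 2.96% of all promoters. Split by role, a CHR was found in 19 of 25 members of G2, mitosis and chromosome structure (76.0%) and in 3 of 15 members of replication, nucleotide supply and entry into S phase (20.0%). For the E2F sites the order was the other way, with 1 of 25 (4.0%), which is Cdk1, and 6 of 15 (40.0%). No searched element stood in 9 of the 40 members: Birc5, Ccne1, Cdc6, E2f1, Melk, Nuf2, Nusap1, Tk1 and Tyms. On old B1 replicate 3 their excess over the other 2 arrays ran from 0.56 (Ccne1) to 3.26 (Nusap1). Whether the matches go with the excess was not tested. A match is a stretch of letters and not a shown binding site.

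**Figure D4:**
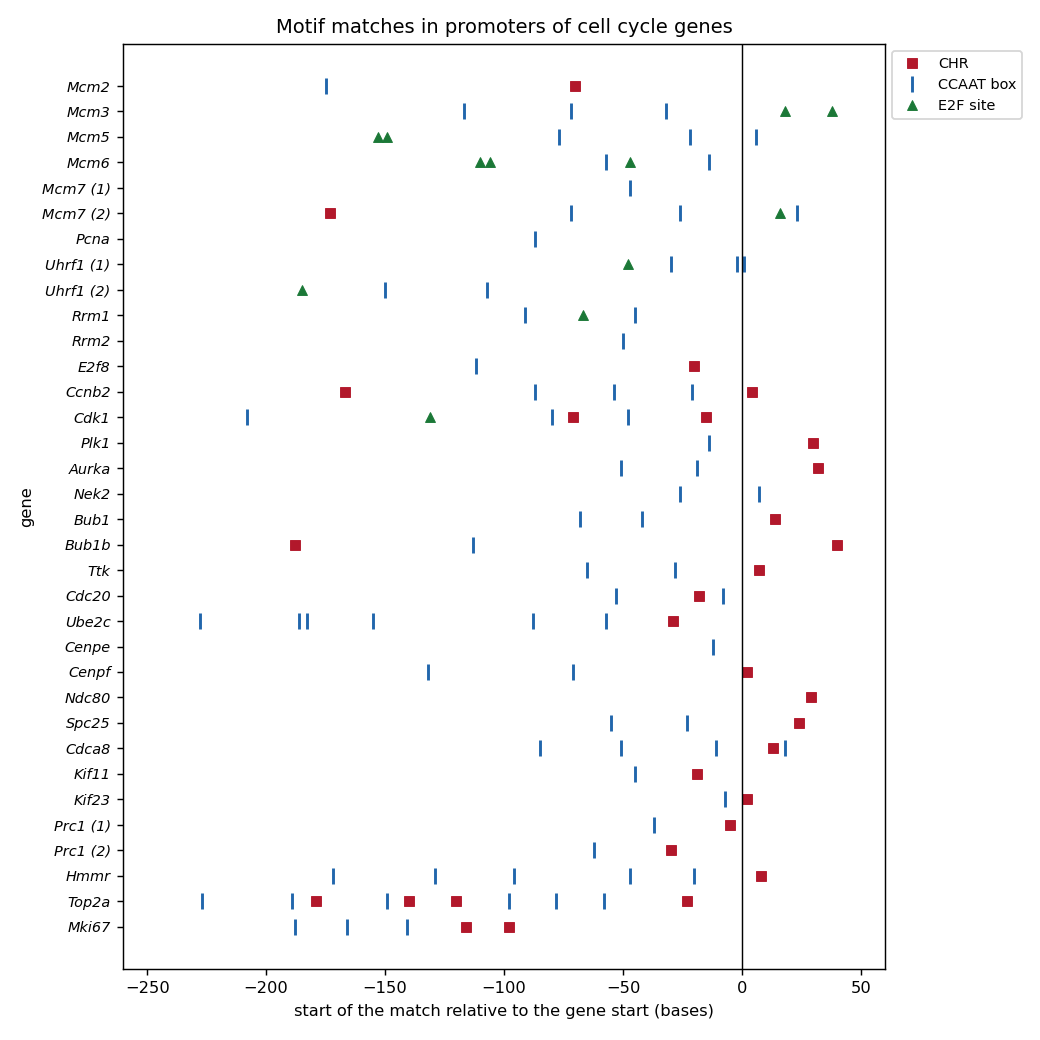
Start of each match to a CHR (squares), a CCAAT box (bars) or an E2F site (triangles) relative to the gene start (horizontal axis, in bases), for the 34 promoters of 31 members that held any. Genes with 2 promoters have 2 rows. Squares fall mostly on the mitotic genes in the lower rows and triangles on the replication genes in the upper rows.

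The excess on the 2 arrays differed by role. Among the 10 licensing and fork genes, old B1 replicate 3 lay above its group by a median of 0.69 and old FO replicate 2 by 0.16. For the 5 genes of the spindle checkpoint and the anaphase-promoting complex these medians were 2.27 and 1.80, for the 8 spindle and cytokinesis genes 2.01 and 1.33, and for Top2a and Mki67 together 2.43 and 1.63. Nucleotide supply (1.43 and 0.99), G1/S regulators (1.55 and 0.54), cyclins and kinases of G2 and mitosis with Foxm1 (1.92 and 0.85) and kinetochore genes (1.63 and 0.73) lay between. These medians describe the arrays and were not tested against each other.

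By role, the licensing and fork genes had the smallest median span over the 12 arrays, 1.16. Between the lowest and highest of 12 arrays, Mcm7 spanned 0.59, Mcm4 0.72, Pcna 0.75, Mcm2 0.80 and Mcm5 0.98, while Mcm6 and Mcm3 spanned 1.34 and 1.38. Mcm2 measured 9.97, 10.16 and 9.77 in ABC, 9.93, 10.15 and 10.07 in FO, 9.98, 9.63 and 10.43 in old B1 and 9.79, 9.72 and 10.11 in young B1 cells. Pcna, the sliding clamp of the replication fork, measured 12.60, 12.61 and 12.35 in ABC, 12.48, 12.34 and 12.66 in FO, 12.36, 12.14 and 12.89 in old B1 and 12.28, 12.36 and 12.35 in young B1 cells. For both genes the 4 groups overlapped, and old FO replicate 2 was not above its group for Pcna.

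Other genes of the same role moved much more. Cdc6, which helps to load the helicase, measured 6.83, 6.40 and 6.93 in ABC, 5.02, 7.21 and 5.72 in FO, 7.23, 6.22 and 8.77 in old B1 and 7.14, 7.09 and 7.54 in young B1 cells, a span of 3.76. Uhrf1, which keeps DNA methylation through replication, spanned 2.97. Gins1, a subunit of the active helicase, spanned 2.02 and measured 8.86, 9.18 and 8.38 in ABC, 8.63, 8.42 and 8.70 in FO, 8.20, 8.16 and 9.83 in old B1 and 7.81, 7.97 and 8.44 in young B1 cells. On old FO replicate 2 Cdc6 and Uhrf1 were 1.85 and 1.34 above the other FO arrays, and Gins1 differed from them by -0.24.

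Mcm6 separated FO from the other cells. It measured 10.45, 10.45 and 10.50 in ABC, 9.79, 10.22 and 10.17 in FO, 10.87, 10.52 and 11.13 in old B1 and 10.54, 10.67 and 10.82 in young B1 cells. All FO arrays lay below all other arrays, the arrays shown apart included.

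In nucleotide supply, Rrm2, the regulated subunit of ribonucleotide reductase, measured 11.35, 10.97 and 11.35 in ABC, 10.12, 11.91 and 10.61 in FO, 11.05, 10.62 and 12.52 in old B1 and 11.47, 11.23 and 11.43 in young B1 cells. Its partner subunit Rrm1 and thymidylate synthase (Tyms) were highest on old B1 replicate 3 as well, and thymidine kinase (Tk1) was highest on young B1 replicate 1, at 9.23. Tyms lay below the median of all probe sets on 11 of the 12 arrays, so its differences rest on dim signal. No member lay under the 25th percentile of any array.

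Among G1/S regulators, Ccne1, the cyclin E1 that drives cells from G1 into S phase, behaved unlike the rest. It measured 9.52, 9.17 and 9.56 in ABC, 8.74, 8.44 and 8.91 in FO, 9.66, 9.48 and 10.13 in old B1 and 9.98, 9.66 and 9.98 in young B1 cells. FO lay below every other array, and FO replicate 2 was the lowest of all, at -0.38 against the other 2 FO arrays. E2f1, the activating E2F factor, measured 7.33, 6.87 and 7.37 in ABC, 6.22, 7.49 and 6.37 in FO, 7.12, 6.58 and 9.32 in old B1 and 7.48, 7.0 and 7.60 in young B1 cells. E2f8, a repressor E2F, had one of the larger excesses on both arrays shown apart, 2.88 in old B1 and 2.17 in FO. Ccne2, the other cyclin E, spanned 1.07 over the 12 arrays and was highest on ABC replicate 2.

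Among the 9 cyclins, kinases and factors of G2 and mitosis, Ccna2 spanned 3.17, Aurkb 2.70, Ccnb2 2.30 and Plk1 2.20, while Foxm1, which drives transcription of the late wave, spanned 0.80. Nek2, a kinase of the centrosome, differed from this group. It measured 6.39, 5.69 and 6.13 in ABC, 5.86, 6.80 and 6.05 in FO, 6.73, 6.51 and 7.42 in old B1 and 7.95, 7.24 and 7.90 in young B1 cells, so it was higher on 2 young B1 arrays than on old B1 replicate 3.

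Spindle checkpoint genes spanned between 1.75 (Cdc20) and 4.63 (Ube2c). Ttk, the checkpoint kinase MPS1, measured 7.36, 7.28 and 6.86 in ABC, 5.29, 7.17 and 5.45 in FO, 6.42, 6.16 and 8.56 in old B1 and 6.75, 6.05 and 6.44 in young B1 cells. Bub1, another checkpoint kinase, spanned 3.74 and Bub1b 2.41. At the kinetochore, where chromosomes attach to the spindle, 3 subunits of the NDC80 complex differed. Ndc80 measured 8.21, 7.88 and 8.13 on FO replicates 1 to 3 against 7.50 to 7.98 in ABC, and Spc25 measured 8.57 to 8.75 in FO against 8.78 to 9.37 in ABC. Their partner Nuf2 measured 4.89, 7.19 and 4.91 on FO replicates 1 to 3 against 6.31 to 7.02 in ABC, so replicate 2 lay above all ABC arrays.

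Spindle genes had a median span of 3.35 over the 12 arrays, against 3.27 for checkpoint genes. Without the 2 arrays shown apart these were 1.82 and 2.07. Tpx2, which activates Aurora A on the spindle, measured 7.20, 5.96 and 6.87 in ABC, 5.31, 7.94 and 5.43 in FO, 7.63, 8.02 and 9.85 in old B1 and 8.12, 6.46 and 7.58 in young B1 cells, a span of 4.54. Kif11, the kinesin that pushes spindle poles apart, measured 6.98, 6.23 and 6.75 in ABC, 5.19, 7.35 and 5.54 in FO, 6.75, 6.01 and 9.32 in old B1 and 7.61, 6.78 and 7.11 in young B1 cells. Hmmr, a spindle-associated protein, measured 8.05, 7.29 and 7.28 in ABC, 5.35, 7.86 and 5.97 in FO, 6.87, 6.01 and 8.44 in old B1 and 7.56, 7.32 and 7.38 in young B1 cells. Stmn1, which destabilises microtubules, spanned 1.56 and measured 11.98, 11.83 and 11.75 in ABC, 11.54, 12.28 and 11.66 in FO, 11.73, 11.26 and 12.82 in old B1 and 12.15, 12.02 and 12.15 in young B1 cells. Tpx2 was the only one of these genes to be higher on all old B1 arrays than on all ABC arrays.

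The 4 groups were compared with limma in 1 fit of all 12 arrays, and the p-values of all 18193 genes were adjusted by Benjamini-Hochberg, with calls below 0.05. Log2 differences are printed ± their standard error, with n = 3 arrays a group unless an array was left out. The comparisons share arrays, so their counts are not independent of each other. Counts for other gene lists come from 12 arrays unless stated. Each count of called members is also given from a fit of the 10 arrays without old B1 replicate 3 and old FO replicate 2. That alternative was chosen with the values known. Since those arrays hold the highest values of most members, leaving them out lowers FO and old B1 cells by its construction, and the counts from 10 arrays are no independent support. Members named from that fit were chosen after their values were seen.

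ABC against FO asks how a splenic population that accumulates with age differs from the follicular B cells of old mice. With 12 arrays, 1 of the 49 members was called, against 9.96% of all genes. That member was Ccne1, higher in ABC by 0.72 ± 0.19, or 1.65-fold (limma adjusted p = 0.0393). Its call was lost without any of 8 arrays: ABC replicate 1 (adjusted p = 0.131) or 3 (0.132), FO replicate 1 (0.0945), 2 (0.132) or 3 (0.0508), old B1 replicate 1 (0.0527), and young B1 replicate 1 (0.0587) or 3 (0.0601). It was lost as well under cyclic loess (adjusted p = 0.0627) and after centring each array on its median (0.33, adjusted p = 0.289). The largest differences were those of Mki67 (1.36 ± 0.72, adjusted p = 0.34), Ttk (1.20 ± 0.63, adjusted p = 0.336) and Hmmr (1.15 ± 0.67, adjusted p = 0.402), none of them called.

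The differences of ABC from FO were above 0 in 42 of 49 members, with a median of 0.38 against -0.03 for all genes, and in 23 members after centring, which moved the median of all genes to -0.43. Relative to the median of all genes, 43 members were above in either case. At an unadjusted p under 0.05 there were 3 members, against 20.4% of all genes. In 6 members every ABC array was above every FO array, against 15.2% of all genes, and in Mcm7 every one was below, against 13.6% of all genes.

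Without the 2 arrays, 24 members were called between ABC and FO, against 16.3% of all genes, of which 23 rose in ABC and Mcm7 fell by 0.37 ± 0.11 (adjusted p = 0.0412). After centring the count of 24 split into 18 higher and 6 lower, with the median of all genes at -0.41 and 59.2% of all genes called. Under cyclic loess all 24 called were higher, against 16.6% of all genes called. Mki67 (2.02 ± 0.27, or 4.05-fold, adjusted p = 0.000884), Ube2c (2.02 ± 0.24, or 4.04-fold, adjusted p = 0.000412), Hmmr (1.88 ± 0.31), Birc5 (1.82 ± 0.20, adjusted p = 0.000278), Ttk (1.80 ± 0.21) and Nuf2 (1.72 ± 0.22) had the largest. In this fit 39 members had all ABC arrays above both FO arrays, against 20.6% of all genes, and 14 of the called members differed by more than 2-fold.

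By role, those called higher in ABC were 2 of 10 licensing and fork genes (Cdc6 and Uhrf1), 2 of 4 in nucleotide supply, 3 of 4 G1/S regulators, 5 of 9 in G2 and mitosis, 3 of 5 checkpoint genes, 3 of 7 kinetochore genes, 3 of 8 spindle genes and both chromosome genes. Of the helicase subunits Mcm2 to Mcm6 none was called, and Mcm6 was nearest at 0.49 ± 0.15 (adjusted p = 0.0539). The count of 24 fell to 11 without FO replicate 1 (9.31% of all genes called), to 15 without ABC replicate 1 (14.1%) and to 16 without FO replicate 3 (10.9%). From the 12 arrays, leaving out FO replicate 2 alone gave 0 called members (8.49% of all genes), and leaving out old B1 replicate 3 alone gave 1 (15.6%).

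**Figure D5:**
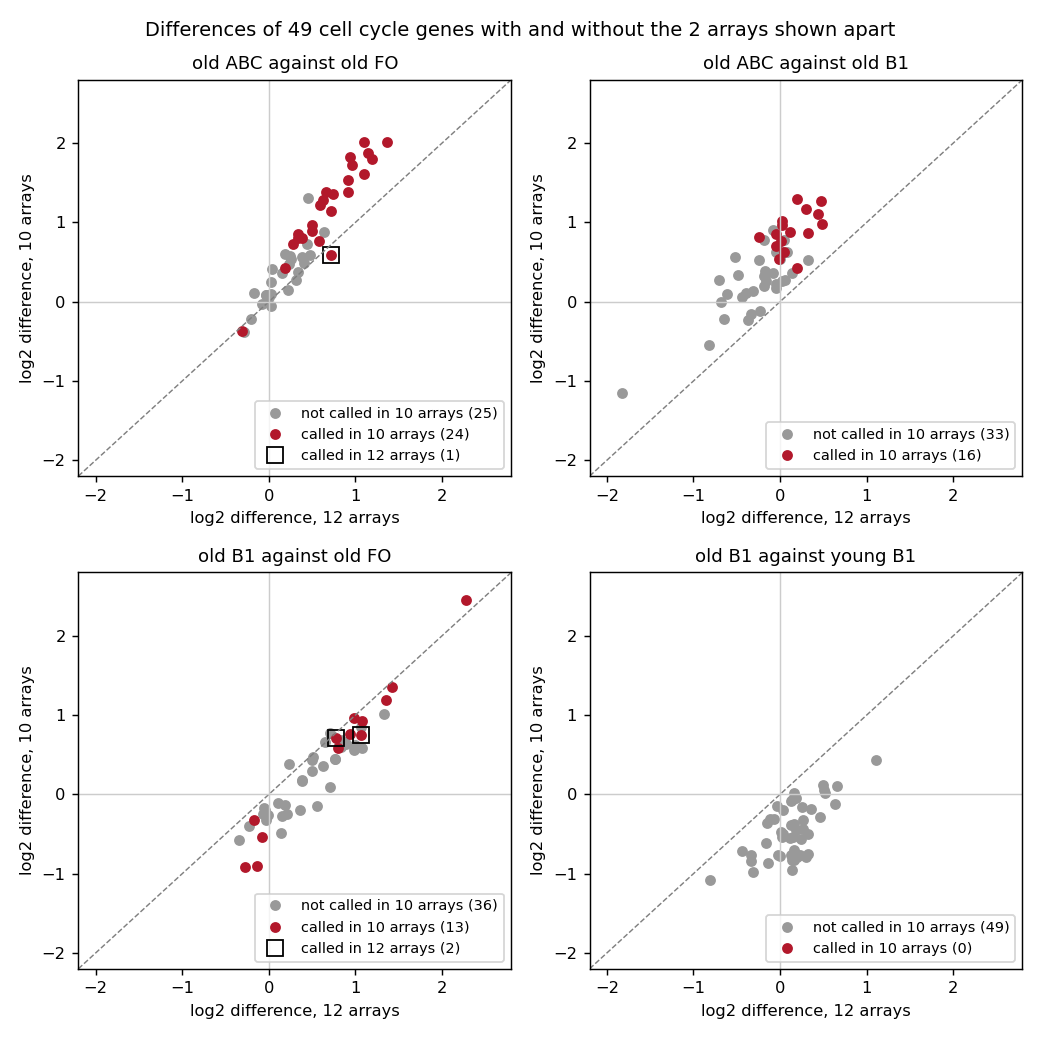
Log2 differences of the 49 cell cycle genes in 4 comparisons, with all 12 arrays (horizontal axis) and without old FO replicate 2 and old B1 replicate 3 (vertical axis). Red points were called in 10 arrays, squares mark genes called in 12, and the dashed line marks equal values. Most points lie above the line for ABC against FO and against old B1 and below it for old against young B1 cells.

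Neutrophil, macrophage and plasma cell markers also differed between ABC and FO with 12 arrays, where 9.96% of all genes were called. Of the neutrophil markers 7 of 11 rose in ABC, and S100a9 measured 13.34 to 13.70 on ABC arrays against 7.71, 10.06 and 12.44 on FO replicates 1 to 3. S100a8, the partner of S100a9, measured 12.77 to 13.23 in ABC and 6.88, 8.92 and 11.66 in FO. Macrophage markers rose in 10 of 12, with Lyz2 at 12.41, 11.63 and 12.27 in ABC against 8.03, 8.58 and 10.03 in FO and C1qb at 11.50, 11.57 and 11.52 against 7.0, 8.07 and 9.53. Plasma cell markers rose in 6 of 10, and their summed intensity was 25040 to 29498 in ABC against 14850, 24489 and 15530 in FO. Mzb1 and Irf4, the plasma cell markers with the highest means, measured 12.71 to 12.91 and 12.02 to 12.41 in ABC against 12.01 to 12.59 and 12.21 to 12.81 in FO. The part of such cells in the cell cycle values was not tested.

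Markers of germinal centre B cells, which divide fast, followed another order. Their sum was 10074 to 10713 in ABC, 10676 to 13936 in FO and 3086 to 3590 on the 6 B1 arrays, and it was highest on FO replicate 2, where 4 of the 9 markers were more than 2-fold above the other 2 FO arrays. Bcl6 measured 11.70, 12.24 and 11.69 on FO replicates 1 to 3, and Lmo2 measured 12.63, 12.69 and 12.62. On old B1 replicate 3 the germinal centre sum was 3086, the lowest of the 12 arrays. Whether germinal centre cells had a part in the values of FO replicate 2 was not tested.

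ABC against old B1 cells compares the age-associated population with another B cell type of old mice, from another site in the body. No member was called with 12 arrays, where limma called 12.8% of all genes, and 3 members had an unadjusted p under 0.05, against 25.5% of all genes. Tpx2 (-1.82 ± 0.78, adjusted p = 0.175), Nek2 (-0.82 ± 0.32, adjusted p = 0.136) and Kif11 (-0.70 ± 0.78, adjusted p = 0.62) had the largest differences, all lower in ABC. Differences were above 0 in 19 members (10 under cyclic loess, 9 after centring), with a median of -0.05 against 0.02 for all genes. In 3 members, Tpx2, Nek2 and Mcm6, every ABC array lay below every old B1 array, against 11.8% of all genes, and in 0 members above, against 17% of all genes.

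Without the 2 arrays the order turned. In that fit 16 members rose in ABC against old B1 and 0 fell, where 17.5% of all genes were called, and 23 of the 49 members changed sign between the fits. Cdk1 (1.29 ± 0.22, or 2.44-fold, adjusted p = 0.00349), Spc25 (1.28 ± 0.22, adjusted p = 0.00342), Mki67 (1.17 ± 0.27, adjusted p = 0.016), Hmmr (1.10 ± 0.31), Prc1 (1.02 ± 0.24) and Cdc20 (0.98 ± 0.20) had the largest differences. Of the 5 checkpoint genes 4 were called and of the 7 kinetochore genes 5, against 1 of 10 licensing genes (Mcm4, 0.42 ± 0.09) and 0 of 8 in nucleotide supply and G1/S. Kif11 turned from -0.70 to 0.28, and Tpx2 stayed lower in ABC at -1.15 ± 0.47 (adjusted p = 0.14).

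Single libraries decided this count. It was 6 without old B1 replicate 3 alone (15% of all genes called). In the 10 arrays it fell to 2 without old B1 replicate 2 (11% of all genes). Without old B1 replicate 1 it was 17, with 1102 of all genes called higher and 973 lower, against 913 and 1080 without replicate 2. Neutrophil markers rose in 10 of 11 in ABC against old B1 with 12 arrays, where 12.8% of all genes were called. The old B1 arrays also differed among themselves. The macrophage sum was 27815 and 26945 on replicates 1 and 2 and 11773 on replicate 3, and the mast cell sum was 4841, 3779 and 1983. The T cell gene Cd3g measured 9.68, 9.68 and 7.89 on these arrays, while Cd2 measured 13.25, 13.30 and 13.29. Over the 9 measured T cell markers, replicate 3 differed from the other 2 arrays by a median of -2.65. Hdc and Cpa3, made by mast cells, measured 8.67, 9.23 and 6.44, and 10.46, 9.77 and 8.85. Their part in the member values was not tested.

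Old B1 against FO cells compares the remaining pair of old populations. With 12 arrays 2 of 49 members were called, against 16.4% of all genes, both higher in old B1. These were Ccne1 (1.06 ± 0.19, or 2.09-fold, adjusted p = 0.00351) and Mcm6 (0.78 ± 0.16, or 1.72-fold, adjusted p = 0.00821), whose groups did not overlap. Both kept their calls without any single array, with adjusted p up to 0.014 for Ccne1 and 0.0354 for Mcm6. Mcm6 lost its call after centring (0.52, adjusted p = 0.121) and where only the 2 groups were fitted (adjusted p = 0.0848). Tpx2 (2.27 ± 0.78, adjusted p = 0.078), Cdc6 (1.43 ± 0.63, adjusted p = 0.167) and Ube2c (1.35 ± 0.90, adjusted p = 0.376) were larger but were not called. Without FO replicate 2, Tpx2 (3.13, adjusted p = 0.0131) and Cdc6 (2.04, adjusted p = 0.0446) were called, and Cdc6 was also called without old B1 replicate 2 (2.02, adjusted p = 0.0496).

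Differences of old B1 from FO were above 0 in 38 members (43 under cyclic loess, 32 after centring with the median of all genes at -0.30), with a median of 0.63 against -0.04 for all genes. In Ccne1 and Mcm6 every old B1 array was above every FO array, against 12.3% of all genes, and in 0 members below, against 16.6%. The count of called members was 4 without FO replicate 2, all higher in old B1 (16.2% of all genes called), and 6 without old B1 replicate 3, of which 2 were higher and 4 lower (19.5%). With 12 arrays, where 16.4% of all genes were called, macrophage markers rose in 12 of 12 and mast cell markers in 5 of 8 in old B1. Germinal centre markers fell in 4 of 9 there. The part of all such cells in the member values was not tested.

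In the 10 arrays 13 members were called between old B1 and FO, against 22% of all genes. Of these, 9 rose in old B1: Tpx2 (2.45 ± 0.51, or 5.48-fold), Cdc6 (1.36 ± 0.35), Ube2c (1.20 ± 0.26), Birc5 (0.97 ± 0.22), Ttk (0.92 ± 0.23), Nuf2 (0.76 ± 0.24), Ccne1 (0.75 ± 0.17), Mcm6 (0.72 ± 0.16) and Kif20a (0.59 ± 0.16), a kinesin of cytokinesis. The other 4 fell, and these were Ndc80 (-0.91 ± 0.16, adjusted p = 0.00315), Spc25 (-0.91 ± 0.24), Aurka (-0.53 ± 0.15) and Mcm4 (-0.32 ± 0.10). Centring moved this split to 4 higher and 18 lower, with the median of all genes at -0.45 and 59.3% of all genes called. The count was 2 without FO replicate 1 (14% of all genes called), 5 without old B1 replicate 1 (14.5%) and 8 without FO replicate 3 (15.8%). Within the NDC80 complex the subunits thus differed, with Ndc80 and Spc25 lower and Nuf2 higher in old B1.

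Old against young B1 cells asks what changes with age in a cell type of the same site. No member was called with 12 arrays, where 0.291% of all genes were, and 1 member had an unadjusted p under 0.05, against 7.57% of all genes. Tpx2 (1.11 ± 0.78, adjusted p = 0.712), Nek2 (-0.81 ± 0.32, adjusted p = 0.601) and Gins1 (0.66 ± 0.40, adjusted p = 0.705) had the largest differences, and the groups overlapped in all 49 members, where 6.14% of all genes were higher on all old arrays and 7.75% lower. Differences were above 0 in 36 members (39 under cyclic loess, 40 after centring), with a median of 0.15 against -0.01 for all genes.

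Without old B1 replicate 3 no member was called either, where 1.14% of all genes were called in the 10 arrays. In these arrays 43 members were below 0 and 24 had an unadjusted p under 0.05, where 9.65% of all genes did. The median was -0.50 against -0.00037 for all genes, and 30 of the 49 members changed sign between the fits. In 25 members both old B1 arrays lay below all young B1 arrays, against 13.1% of all genes, and in 0 above, against 14% of all genes. Cdk1 (-0.95 ± 0.22, adjusted p = 0.104), Stmn1 (-0.61 ± 0.14, adjusted p = 0.104) and Nek2 (-1.08 ± 0.25, adjusted p = 0.0966) missed the threshold. After centring 6 members were called, all lower in old B1 cells (1.45% of all genes), and without old B1 replicate 1 or young B1 replicate 2 the counts were 2 and 1 (0.572% and 0.594%). Mast cell sums were 9838, 2243 and 9671 on young B1 replicates 1 to 3, and no marker of the 8 cell type lists was called between old and young B1 cells with 12 arrays. In the 10 arrays 1 of 10 plasma cell markers and 1 of 12 macrophage and monocyte markers rose in old B1, and the median difference of the macrophage and monocyte list was 0.73. The median was 0.79 for the T cell list and -0.65 for the mast cell list, with no marker called in either. For the other lists it lay between -0.06 and 0.13. Their part was not tested.

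The standard errors show how much the 2 arrays weigh. For ABC against FO the median standard error was 0.49 over the members and 0.17 over all genes with 12 arrays, and 0.21 and 0.14 without the 2 arrays.

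Most other probe sets of the same genes gave a like picture. Old B1 replicate 3 was the highest of its group on 106 of the 112 probe sets, 57 of 63 among those not used above, and FO replicate 2 on 85 of 112 and 43 of 63. Fitted over all probe sets with 12 arrays, 2 member probe sets were higher in ABC than in FO, 0 differed between ABC and old B1, 6 were higher in old B1 than in FO and 0 differed between old and young B1, where 7.69%, 10.6%, 14.2% and 0.223% of all probe sets were called. Without the 2 arrays those counts were 34 higher, 22 higher, 12 higher with 5 lower, and 0, against 13.3%, 14.7%, 18.9% and 0.844% of all probe sets. Both probe sets of Ccne1 were higher in ABC than in FO (0.72 and 0.85) and in old B1 than in FO (1.06 and 1.18). For Mcm6 old B1 and FO differed by 0.78 and 0.83 on 2 probe sets, and by -0.0040 on the third, which was under the 25th percentile on 10 of 12 arrays. Some genes had probe sets that disagreed. For ABC against FO, 2 dim ones of Top2a gave -0.28 and -0.11 where the brightest gave 0.72. Probe sets not used above also gave -0.14 for E2f1, -0.25 for Bub1 and -0.31 for Bub1b, where the brightest gave 0.49, 0.92 and 0.38. Without the 2 arrays these 3 gave -0.17, 0.33 and -0.10.

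Outside the 50 genes, 49 other mitosis genes moved in a like way on the 2 arrays. Old B1 replicate 3 was the highest of its group in 43 of them, by a median of 1.52, and FO replicate 2 in 37, by a median of 0.59. Among 40 other replication genes these were 28 (0.54) and 15 (-0.05). Of 9 G1 cyclins, their kinases and CDC25 genes, old B1 replicate 3 was highest in 4 and FO replicate 2 in 4, and in the 16 pocket protein, E2F and MuvB genes the counts were 7 and 9. Over all genes, old B1 replicate 3 was the highest of its group in 36.6% and FO replicate 2 in 38.2%.

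In the test with 12 arrays, 1 of the 49 other mitosis genes rose in ABC against FO, and 1 rose and 1 fell against old B1. In old B1 against FO 3 rose, and 0 changed between old and young B1. Over all genes 9.96%, 12.8%, 16.4% and 0.291% were called in these comparisons. Without the 2 arrays 17 rose in ABC against FO and 10 rose against old B1. In old B1 against FO 5 then rose and 4 fell, and 0 changed between old and young B1. The shares of all genes were then 16.3%, 17.5%, 22% and 1.14%. Values of single genes below are from 12 arrays unless stated. Racgap1, part of the centralspindlin complex of cytokinesis, was higher in ABC than in FO by 2.34 ± 0.27 (adjusted p = 0.000258) and in old B1 than in FO by 2.76 ± 0.27 (adjusted p = 5.71e-05). It measured 9.33, 9.62 and 9.79 in ABC, 6.72, 7.95 and 7.05 in FO, 9.97, 9.84 and 10.19 in old B1 and 10.26, 10.01 and 10.26 in young B1 cells, so FO was low on all 3 arrays. Aspm, a protein of the spindle poles, was lower in ABC than in old B1 (-1.06 ± 0.31, adjusted p = 0.0487, lost without the 2 arrays at -0.73 and adjusted p = 0.0592) and higher in old B1 than in FO by 1.98 ± 0.31 (adjusted p = 0.00147). Espl1, the protease separase, was higher in old B1 than in FO by 1.82 ± 0.39 (adjusted p = 0.009), and Pttg1, its inhibitor securin, was higher in ABC than in old B1 by 0.44 ± 0.13 (adjusted p = 0.046), or by 0.28 without the 2 arrays (adjusted p = 0.0477).

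Of the 40 other replication genes 8 fell and 0 rose in old B1 against FO with 12 arrays, where 16.4% of all genes were called. In ABC 1 rose and 2 fell against FO (9.96% of all genes called), and 2 rose against old B1 (12.8%). Without the 2 arrays 14 fell and 0 rose in old B1 against FO (22% of all genes). In ABC 4 then rose and 4 fell against FO (16.3%), and 5 rose against old B1 (17.5%). Values of single genes are from 12 arrays. Cdc7, the kinase that fires origins, was lower in old B1 than in FO (-0.68 ± 0.12, adjusted p = 0.00338) and in ABC than in FO (-0.52 ± 0.12, adjusted p = 0.0216). Cdt1, a licensing factor, was lower in old B1 than in FO (-0.65 ± 0.14, adjusted p = 0.00723), as was Gins3, a subunit of the active helicase (-0.48 ± 0.11, adjusted p = 0.0142). The clamp loader subunits went opposite ways between ABC and FO, with Rfc1 at -0.78 ± 0.12 (adjusted p = 0.00238) and Rfc2 at 0.67 ± 0.11 (adjusted p = 0.00266). Both were lower in old B1 than in FO, Rfc1 at -0.62 ± 0.12 (adjusted p = 0.00609) and Rfc2 at -0.66 ± 0.11 (adjusted p = 0.0019). Against old B1, Rfc2 (1.33 ± 0.11, adjusted p = 3.16e-05) and Gins3 (0.43 ± 0.11, adjusted p = 0.0307) rose in ABC.

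Genes that act in G1 differed between the cell types in several members. Ccnd2, a D-type cyclin, measured 11.95, 11.02 and 11.80 in ABC, 11.25, 11.44 and 11.61 in FO, 12.92, 12.73 and 13.00 in old B1 and 13.03, 12.97 and 13.09 in young B1 cells. It was higher in old B1 than in FO by 1.45 ± 0.21 (adjusted p = 0.00089) and lower in ABC than in old B1 (-1.29 ± 0.21, adjusted p = 0.00241), and old B1 replicate 3 did not stand apart. Cdk6, a kinase partner of the D-type cyclins, was lower in old B1 than in FO (-2.88 ± 0.55, adjusted p = 0.00444) and higher in ABC than in old B1 (2.16 ± 0.55, adjusted p = 0.0252). It measured 6.99, 7.22 and 4.59 on old B1 replicates 1 to 3, 8.28 to 8.62 in ABC, 8.90 to 9.48 in FO and 8.44 to 8.79 in young B1 cells. Without the 2 arrays these differences were -2.17 and 1.32, and both were still called.

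Other called genes of this list were Cdc25b, a phosphatase that activates cyclin-dependent kinases (0.77 ± 0.15 in old B1 against FO, -1.16 ± 0.15 in ABC against old B1), Cdk4 (0.46 ± 0.12 and -0.43 ± 0.12 in the same comparisons), Cdk2 (-0.59 ± 0.15 in ABC against FO, -0.86 ± 0.15 against old B1) and Ccnd1 (1.62 ± 0.46 in ABC against FO). Without the 2 arrays, Cdk4 lost its call in ABC against old B1 (-0.30, adjusted p = 0.0652). In all, 1 of 9 rose and 1 fell in ABC against FO with 12 arrays, and 1 rose and 4 fell against old B1. In old B1 against FO 3 rose and 1 fell, and 0 changed between old and young B1. Over all genes 9.96%, 12.8%, 16.4% and 0.291% were called in these comparisons. Without the 2 arrays 1 fell in old against young B1, where 1.14% of all genes were called.

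Among 7 inhibitors of cyclin-dependent kinases, Cdkn2b, which encodes the CDK4 and CDK6 inhibitor p15, had the largest difference. It measured 7.46, 7.60 and 7.51 in ABC, 4.41, 4.73 and 4.59 in FO, 6.74, 6.87 and 5.20 in old B1 and 6.65, 6.20 and 6.44 in young B1 cells. Cdkn2b was higher in ABC than in FO by 2.94 ± 0.36 (adjusted p = 0.000393) and in old B1 than in FO by 1.69 ± 0.36 (adjusted p = 0.00796), and it was higher in ABC than in old B1 by 1.25 ± 0.36 (adjusted p = 0.0428), or by 0.72 without the 2 arrays (adjusted p = 0.00544). Cdkn1a, the inhibitor p21, was higher in old B1 than in FO by 1.67 ± 0.27 (adjusted p = 0.00165) and lower in ABC than in old B1 (-1.11 ± 0.27, adjusted p = 0.0201). Cdkn2d was lower in old B1 than in FO (-0.70 ± 0.20) and higher in ABC than in old B1 (1.21 ± 0.20). In all, 1 of 7 rose in ABC against FO with 12 arrays, and 2 rose and 1 fell against old B1. In old B1 against FO 2 rose and 1 fell, and 0 changed with age. Over all genes 9.96%, 12.8%, 16.4% and 0.291% were called in these comparisons. Without the 2 arrays 1 fell in old against young B1, where 1.14% of all genes were called.

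Of the 16 pocket proteins, other E2F factors and MuvB genes, 1 rose and 1 fell in ABC against FO with 12 arrays. Against old B1 2 rose and 2 fell in ABC. In old B1 against FO 3 rose and 1 fell, and 0 changed with age. Over all genes 9.96%, 12.8%, 16.4% and 0.291% were called in these comparisons. E2f6, a repressor E2F, was higher in old B1 than in FO by 0.98 ± 0.13 (adjusted p = 0.000393) and in ABC than in FO by 0.49 ± 0.13 (adjusted p = 0.0313). E2f5, another repressor, was lower in old B1 than in FO (-1.75 ± 0.39, adjusted p = 0.0114) and higher in ABC than in old B1 by 1.50 ± 0.39 (adjusted p = 0.0301; 0.97 without the 2 arrays), whereas E2f6 was lower there (-0.49 ± 0.13, adjusted p = 0.0281). Rbl2, a pocket protein, was higher in ABC than in old B1 by 0.49 ± 0.14 (adjusted p = 0.0466), a call lost without the 2 arrays (0.34, adjusted p = 0.0858). Rb1, the retinoblastoma protein, was higher in old B1 than in FO by 0.49 ± 0.11 (adjusted p = 0.00997), as was Tfdp1, the partner of E2F factors, by 1.09 ± 0.28 (adjusted p = 0.0213). Tfdp2 was lower in ABC than in FO (-0.50 ± 0.11, adjusted p = 0.0181) and than in old B1 (-0.52 ± 0.11, adjusted p = 0.0118).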

How the data were processed

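RNA of sorted B cells, extracted with a picoPure kit and labelled as biotin cRNA, was hybridised to 12 Affymetrix mouse arrays, 3 for each of 4 groups. The values are linear intensities deposited by the authors for 45037 probe sets, normalized between arrays. RMA and affy are named in the submitters' processing notes, with version and order not given in the sources used here. Values were taken as log2 with no floor. Probe sets with a single gene symbol in the platform annotation (34945) gave 18193 genes, the brightest probe set on average standing for a gene. The 932 probe sets with several symbols and the 9160 with none were left out.

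Groups were compared with limma 3.58.1 in R 4.3.3 (lmFit and eBayes, 12 arrays, 4 group means, Benjamini-Hochberg adjustment over all genes, calls at 0.05), and the code was tested on simulated data. Figures and promoters used Python 3.11.15, pandas 2.3.3 and matplotlib 3.10.9. The number of arrays limits the precision.

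The members, lists, promoter elements and the choice of arrays to show apart were made with earlier results of these data known. Values by array are given for a fixed set of members and for the called members with the largest differences (the 3 largest where fewer were called). For other pathway lists, at most 5 called genes a list are named, in order of p. Alternatives were variance moderation, array weights, the groups in the fit, cyclic loess, median centring, a block for the replicate number, a filter on dim genes, a floor of 32, other probe sets, a threshold of 0.01 and leaving out arrays. Alternatives to the fit of 10 arrays were chosen after seeing the data.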

Additional observations from a re-analysis of the deposited data

How the results depend on the processing

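Only 12 arrays were compared, and their number limits the precision. Shares in parentheses are those of all genes called. Where a value below moved, the cause was not tested, except that leaving out arrays also means fewer samples.

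For ABC against FO, the 1 called member became 0 at an adjusted p under 0.01 (5.44%), under cyclic loess (10.7%) and with a floor of 32 (8.82%). It became 21 with array weights (21.8%) and 24 without both arrays shown apart (16.3%), and leaving out each array in turn gave 0 to 1. Calls of all genes were then fewest without FO replicate 1 (946 higher, 321 lower) and most without old B1 replicate 3 (1862, 975). After centring the count stayed at 1, but that member was not Ccne1. Of all genes, 935 were then called higher and 5376 lower, against 1295 and 517 in the main fit, so the unchanged count stood against many more calls. For ABC against old B1, the 0 called members became 8 with array weights (19.7%) and 16 without both arrays (17.5%), and 0 to 6 with each array left out. There the calls of all genes were fewest without ABC replicate 2 (949 higher, 660 lower) and most without old B1 replicate 3 (1351, 1387). For old B1 against FO, the 2 called members became 9 with array weights (27.5%), 1 with only these groups in the fit (8%), 1 after centring (29.4%) and 13 without both arrays (22%), and 2 to 6 with each array left out. There the calls of all genes were fewest without FO replicate 1 (1201 higher, 897 lower) and most without old B1 replicate 3 (2078, 1477). Old against young B1 cells gave 0 called members under all 25 of these alternatives. Few of all genes were called there either, from 2 to 316 in the 13 alternatives other than leaving out a single array. With each array left out, calls ran from 11 higher and 6 lower (without young B1 replicate 1) to 110 and 55 (without old B1 replicate 3). With so few calls, 0 called members does not set the members apart from all genes.

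In the fits of 10 arrays, the counts at an adjusted p under 0.01 were 10 (9.47%), 4 (10.5%) and 3 (13.2%) in place of 24, 16 and 13 for the first 3 comparisons, and with a floor of 32 they were 14 (13.5%), 8 (14.9%) and 7 (19%). ABC against old B1 gave 8 with only these groups in the fit (12.2%). Centring gave 22 for old B1 against FO (59.3%) and 6 for old against young B1 (1.45%). With each array left out the ranges were 11 to 27, 2 to 17, 2 to 14 and, for old against young B1, 0 to 2. Calls of all genes (higher and lower) moved as well. For ABC against FO they ran from 1193 and 500 (without FO replicate 1) to 1878 and 1068 (without ABC replicate 2). For ABC against old B1 they ran from 913 and 1080 (old B1 replicate 2) to 1755 and 1504 (ABC replicate 3). For old B1 against FO the ends were 1576 and 979 (FO replicate 1) and 2272 and 1983 (ABC replicate 2). For old against young B1 they were 59 and 45 (old B1 replicate 1) and 181 and 96 (ABC replicate 2).

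Groups share replicate numbers in the labels, but same-numbered arrays did not deviate together over genes (18 pairs, r from -0.39 to 0.23, 3 of them over 0.1), so the numbers were not shown to pair the arrays. With the replicate block the counts were 1 (8.48%), 0 (11.2%), 2 (14.1%) and 0 (0.176%) with 12 arrays and 31 (16.1%), 21 (17.3%), 20 (21.3%) and 1 (0.929%) with 10.

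Among single members, Kif11 turned from -0.70 to 0.31 in ABC against old B1 with array weights, and to 0.28 without old B1 replicate 3, alone or with FO replicate 2. With each array left out in turn its difference ran from -1.38 to 0.28.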
